A study of Mus musculus with 24 samples.

Results

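The genes described here are 15 of the tricarboxylic acid (TCA) cycle, with pyruvate dehydrogenase counted in, and 15 of the machinery that brings proteins into mitochondria. They are a list of 30 symbols out of 16593 gene names on the array. The list was drawn up by name and pathway, but with earlier results of these data known. The cycle genes are Cs, Idh2, Idh3a, Idh3b, Idh3g, Ogdh, Dlst, Dld, Sucla2, Suclg1, Suclg2, Fh1, Mdh2, Pdha1 and Pdhb. The import genes are Tomm7, Tomm20, Tomm22, Tomm40, Tomm70a, Timm8b, Timm9, Timm10, Timm13, Timm17a, Timm17b, Timm22, Timm23, Timm44 and Timm50. A probe was kept for testing where its detection p was below 0.01 on at least 3 of 24 arrays, and 17 of the 30 genes had such a probe, 11 of the cycle and 6 of import.

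Reticulocytes are young red cells that have left the marrow without a nucleus. Reticulocyte-rich blood of adult male C57BL/6J mice was kept ex vivo, and its total RNA was measured on Illumina mouse bead arrays at 0, 12 and 24 h of culture. There were 5 mutant and 3 wild-type arrays at each time, which the design text calls biological replicates. Unless stated, all groups were fitted together, so each p-value reflects the spread between replicates pooled over all 3 times, 0 h included. The labels give the mutant no gene name, allele or promoter, so the level of the mutated gene could not be set against them, and the middle time, 12 h by the labels, is written as 15 h in a key that came with the arrays.

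The TCA cycle oxidises the acetyl group of acetyl-CoA, which pyruvate dehydrogenase makes from pyruvate, to carbon dioxide inside the mitochondrion. Its intermediate succinyl-CoA is also a substrate of haem synthesis in erythroid cells. Nearly all enzymes of the cycle are made in the cytosol and enter through the TOM complex of the outer membrane and the TIM23 complex of the inner membrane, while small TIM proteins escort membrane proteins across the space between. Reticulocytes lose their mitochondria by autophagy as they mature, and with no nucleus they make no new messenger RNA.

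Promoter windows of 4 of the genes are shown because their levels are described at length below. Timm8b and Idh3g were called between genotypes at 0 h, Mdh2 over time, and Dlst between genotypes at 2 times. The Idh3g difference at 0 h went from 1.75 to 0.04 log2 units without wild-type arrays 2 and 3. For reasons given below, the Dlst contrast is no result. Each window runs from 250 bases before to 50 bases after an annotated start of the gene, which for Dlst is not the outermost one, 5′ to 3′ on the strand of the gene, in the mouse build GRCm38.p6 as given by RefSeq. They lie at chr9:50603651-50603950 on the plus strand (Timm8b), chrX:73786848-73787147 on the minus strand (Idh3g), chr5:135778399-135778698 on the plus strand (Mdh2) and chr12:85110583-85110882 on the plus strand (Dlst). Capitals mark a match to a searched word.
Timm8b: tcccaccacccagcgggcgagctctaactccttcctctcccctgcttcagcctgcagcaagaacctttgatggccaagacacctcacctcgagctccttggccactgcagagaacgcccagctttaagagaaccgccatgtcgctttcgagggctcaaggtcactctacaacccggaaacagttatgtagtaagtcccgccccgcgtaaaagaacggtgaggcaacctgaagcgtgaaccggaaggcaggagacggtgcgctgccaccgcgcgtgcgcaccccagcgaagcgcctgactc
Idh3g: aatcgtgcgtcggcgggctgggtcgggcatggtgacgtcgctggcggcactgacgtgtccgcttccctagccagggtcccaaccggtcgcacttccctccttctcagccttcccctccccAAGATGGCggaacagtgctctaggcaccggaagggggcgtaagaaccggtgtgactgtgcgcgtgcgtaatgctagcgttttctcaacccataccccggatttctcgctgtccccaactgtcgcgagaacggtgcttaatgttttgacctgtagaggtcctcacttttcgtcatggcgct
Mdh2: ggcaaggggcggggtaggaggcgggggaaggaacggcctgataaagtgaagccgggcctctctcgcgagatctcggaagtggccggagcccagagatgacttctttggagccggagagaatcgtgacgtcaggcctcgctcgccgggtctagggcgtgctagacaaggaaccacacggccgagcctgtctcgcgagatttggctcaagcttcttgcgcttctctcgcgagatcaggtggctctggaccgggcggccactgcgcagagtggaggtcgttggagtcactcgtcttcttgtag
Dlst: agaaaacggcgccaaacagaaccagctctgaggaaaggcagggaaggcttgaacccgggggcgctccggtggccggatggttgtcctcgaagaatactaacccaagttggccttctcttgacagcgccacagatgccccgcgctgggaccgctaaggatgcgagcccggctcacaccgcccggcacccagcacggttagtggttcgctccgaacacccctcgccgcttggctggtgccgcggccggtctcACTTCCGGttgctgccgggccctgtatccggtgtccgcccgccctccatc

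Of the 30 genes, 28 matched a window, with Tomm7 and Idh3a the others, and the first listed window of a gene was used. Their GC content was 60.0% at the median, against 52.67% over 27025 windows of all genes. Both strands were searched for 3 words that do not overlap one another, written after transcription factors known to regulate nuclear genes of mitochondria. CCGGAAGT, a word of the ETS family that includes GABP, was in 4 of 28 windows (Dlst, Tomm70a, Timm10 and Timm23), or 14.3%, against 4.0% of all windows. AAGATGGC, a word of YY1, was in 2 of 28 (Idh3g and Timm50), or 7.14%, against 2.88% of all, and GCGCATGC, a core word of NRF1, was in 1 of 28 (Timm13), or 3.57%, against 2.8%. Counted from that start, the Idh3g match begins at -130 and the Dlst match at 1, on the minus strand of the gene. A match is a run of letters and not a bound site, and the absence of a match in Timm8b and Mdh2 says only that these words are not in these 300 bases.

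Few probes were above background, and the 0 h arrays stood apart from the later ones. The raw median intensity was 132 to 298 on the 8 arrays at 0 h and 38.7 to 44.7 on the 16 later arrays, so that at 0 h the arrays 1 and 2 of the mutant and 2 and 3 of the wild type had raw medians above 200. The share of the 25697 probes above background was 3.60 to 17.04% at 0 h, 13.0 to 28.8% at 12 h and 10.2 to 18.3% at 24 h in mutant, against 2.17 to 4.62%, 4.92 to 6.62% and 6.93 to 7.72% in wild type. Of 8 reticulocyte marker genes on the array 6 were detected, including Hba-a1, Alas2 and Slc4a1 on all 24 arrays, while Epb42 and Rhd were at background on every array. B cell markers, 11 on the array and each detected on some array, summed to a normalized intensity of 2286 to 7853 in mutant against 443 to 1203 in wild type at 0 h. Those sums were 2732 to 8058 against 1231 to 1743 at 12 h, and 1240 to 2897 against 831 to 1424 at 24 h. Neutrophil markers (10 on the array, Mmp8 at background throughout) summed to 2906 to 12191 in mutant against 705 to 2062 in wild type at 0 h, 2453 to 9662 against 1083 to 1898 at 12 h, and 1687 to 8348 against 1066 to 1891 at 24 h. Platelet markers (9, Tubb1 at background) summed to 1499 to 2776 in mutant against 258 to 805 in wild type at 0 h, 1802 to 3403 against 449 to 1909 at 12 h, and 2505 to 3592 against 569 to 3144 at 24 h. T cell markers (8, Ms4a4b at background) gave 635 to 1063 against 263 to 800, 748 to 990 against 714 to 789, and 472 to 615 against 449 to 524 for mutant against wild type at 0, 12 and 24 h, and monocyte markers (6, Ccr2 at background) gave 734 to 2046 against 207 to 309, 421 to 1104 against 211 to 307, and 329 to 540 against 239 to 353. The part of these cells in the differences given below was not tested, and in such blood fewer cells of a type and less RNA per cell cannot be told apart.

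By the median array, more of the cycle and import genes were above background in mutant than in wild type at each time, as were more of all probes. At 0 h the 5 mutant arrays had 0, 2, 10, 12 and 14 of the 30 genes above background, against 3, 0 and 1 on the 3 wild-type arrays. At 12 h the numbers were 9, 15, 19, 19 and 15 in mutant against 5, 5 and 3 in wild type. At 24 h they were 9, 11, 11, 16 and 12 in mutant against 7, 7 and 4 in wild type. The mutant and wild-type arrays overlapped at 0 h and did not overlap at 12 or 24 h. The shares of all probes did not overlap there either, at 13.0 to 28.8% against 4.92 to 6.62% at 12 h and 10.2 to 18.3% against 6.93 to 7.72% at 24 h. The counts are therefore no result about the list. Mutant arrays 1 and 2 at 0 h, with 0 and 2 genes above background, were within the wild-type range, and these are the 2 mutant arrays with raw medians above 200. The lowest normalized log2 level of any probe above background was 5.25 to 6.97 on mutant arrays and 6.64 to 7.80 on wild-type arrays at 0 h, 4.95 to 5.47 and 6.18 to 6.55 at 12 h, and 5.20 to 5.70 and 6.00 to 6.12 at 24 h. Every wild-type array thus needed a level of about 6 or more for a probe to stand above background, and most mutant arrays needed less. At each time every mutant value of Cs, Dlst, Fh1, Pdhb, Tomm22, Timm9 and Timm44 lay below the lowest level needed on a wild-type array. A wild-type array at the mutant level of these genes would also read as background. For them the number of arrays above background does not compare the genotypes.

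**Figure D1:**
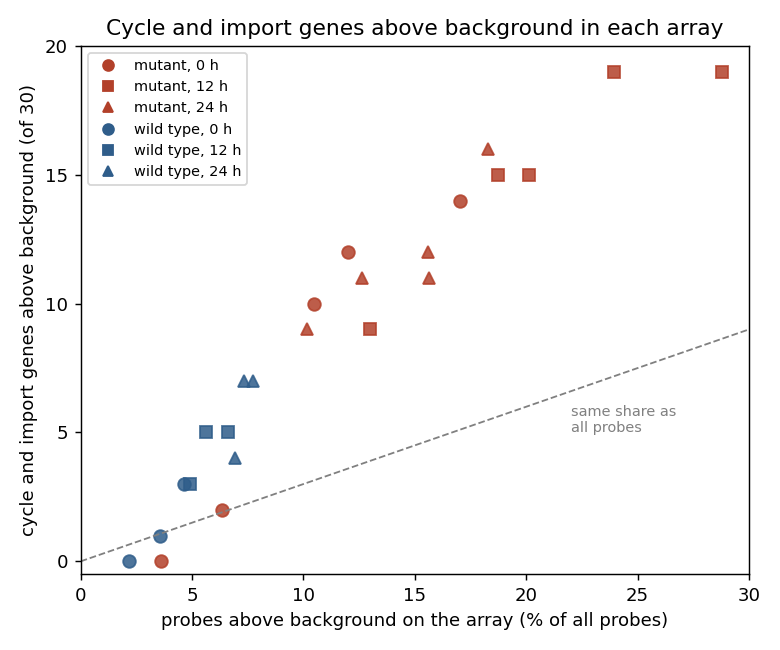
Number of the 30 cycle and import genes above background (vertical axis) against the share of all probes above background in percent (horizontal axis), 1 point for each of the 24 arrays, with genotype by colour and time by shape. The count rises with the share of all probes, from 0 genes at 2.17 to 19 at 28.8%, and lies above the dashed line of equal shares on most arrays. Each gene stands there by its brightest probe, while the share on the horizontal axis is over all probes.

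Which genes could be tested followed from the mutant arrays for much of the list. Of the 17 tested genes 9 were at background on every wild-type array, 6 of 11 in the cycle and 3 of 6 in import, which is 52.9% against 53.7% of all 4846 tested genes. At 0 h 15 of the 17 were at background on all 3 wild-type arrays and 3 on all 5 mutant arrays, and 12 and 10 were at background on all wild-type arrays at 12 and 24 h. A count over the genes that passed is therefore no count over the 30, and passing by mutant arrays alone favours genes that are brighter there, so such a count supports nothing about the list. For a gene at background on every array of 1 group no fold is given, or only a lower bound. For the bound, each array of the dim group is placed at its lowest probe above background, or at the gene's own level where that is higher, and the bright group's mean is set against these.

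Of the other 13 genes, 8 were at background on all 24 arrays. These were Dld, the E3 subunit shared by the dehydrogenase complexes, Sucla2, the ATP-specific beta subunit of succinyl-CoA ligase, and 6 import genes: Tomm40, the channel of the outer membrane, the receptor Tomm70a, Timm13, Timm17b, Timm22 and Timm23. A further 4 were detected on 1 array each. Idh3a, the catalytic subunit of the NAD-dependent isocitrate dehydrogenase, was seen on mutant array 3 at 12 h and Timm10 on mutant array 4 at 12 h, while Suclg2 was seen on wild-type array 3 and the receptor Tomm20 on wild-type array 1, both at 0 h. Timm50, the receptor of the TIM23 complex, lay just outside the filter with 2 arrays, mutant arrays 3 and 4 at 12 h. Idh2, the NADP-dependent isocitrate dehydrogenase, lay just inside it with 3 arrays. On the later arrays the raw intensity of the 13 genes lay between 32.1 and 66.9. For these genes the arrays give no level in either genotype.

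**Figure D2:**
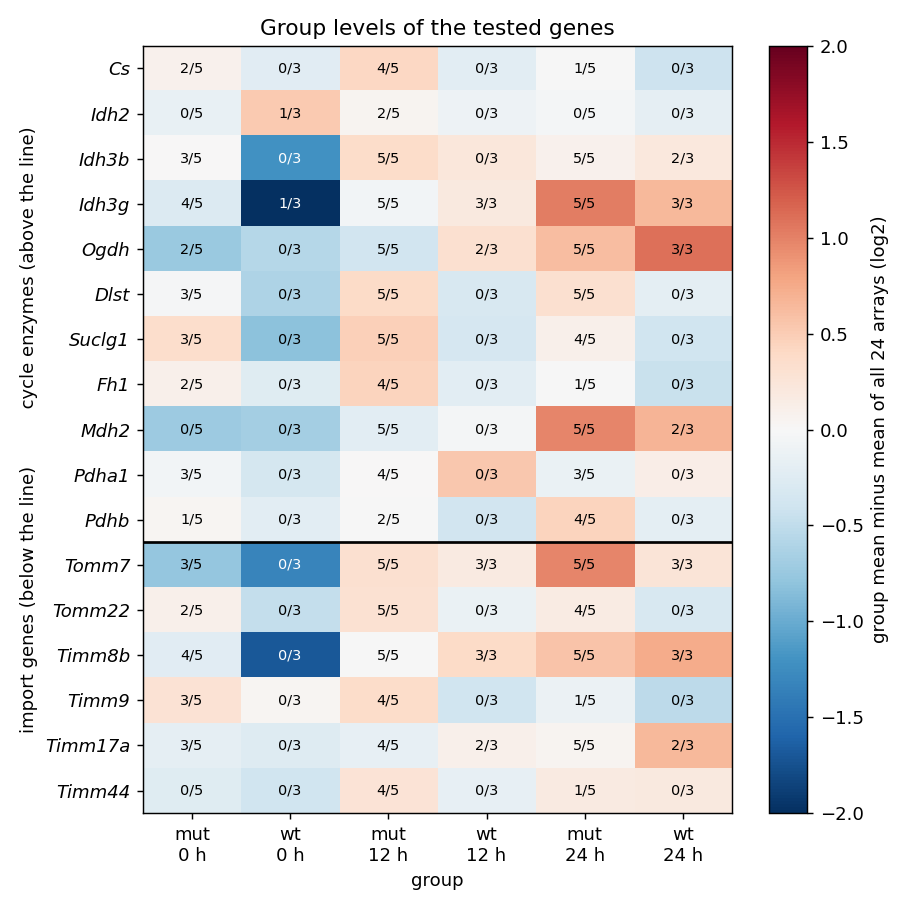
Mean normalized log2 intensity of each of the 17 tested genes in each group, as the difference from the gene's mean over all 24 arrays (colour scale, log2), with the arrays above background of those measured written in each cell. Cycle enzymes stand above the line and import genes below it; the wild-type 0 h column is lowest for Timm8b, Idh3g, Tomm7 and Idh3b, and the 24 h columns are highest for Mdh2, Ogdh, Idh3g and Tomm7 in mutant or wild type.

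Between genotypes, 6 of the 17 tested genes were higher in mutant blood at 0 h, 6 were higher and 2 lower at 12 h, and 1 was higher at 24 h. The genes called at 0 h were the isocitrate dehydrogenase subunits Idh3b and Idh3g, Suclg1, Dlst, Timm8b and Tomm22. At 12 h Cs, Dlst, Fh1, Timm9, Timm44 and Tomm22 were higher and Ogdh and Pdha1 lower, and at 24 h Pdhb was higher. Some of the 0 h differences depend on the arrays of high raw median. Without wild-type arrays 2 and 3, which leaves array 1 alone in its group, Idh3g went from 1.75 to 0.04 and Suclg1 from 1.17 to 0.45 log2 units. In the same setting Dlst went from 0.60 to 0.65 and Tomm22 from 0.58 to 0.53. Counts of calls between genotypes with a lone wild-type array are not given. Calls are at an adjusted p below 0.05 by limma, with Benjamini-Hochberg adjustment over all 4846 tested genes. They were 42.5% of all tested genes at 0 h, 50.2% at 12 h and 16.8% at 24 h, in either direction, with 34.1%, 34.3% and 8.61% higher in mutant and 8.4%, 15.9% and 8.17% lower. The counts of 6, 8 and 1 of 17 are near these shares and are no result about the list as a whole. At an unadjusted p below 0.05 the numbers were 8, 9 and 6 of 17, against 2474, 2834 and 1585 of all 4846. Among the called genes, the groups did not overlap for 4 at 0 h, 7 at 12 h and 1 at 24 h, against 20.4%, 44.3% and 15.2% of all tested genes. With only the arrays of each time fitted, 1 of the list was called at 0 h, 10 at 12 h and 10 at 24 h. Over all tested genes these numbers were 593, 3524 and 2169. A gene not called at 12 or 24 h in the joint fit can therefore still differ relative to the spread of those arrays alone.

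Cycle and import genes are given side by side, with no test between them. The median difference, mutant minus wild type, was 0.30, 0.15 and 0.38 log2 units for the 11 cycle genes and 0.40, 0.29 and 0.19 for the 6 import genes at 0, 12 and 24 h, against 0.26, 0.29 and 0.17 over all tested genes. Cycle genes higher in mutant numbered 4, 3 and 1, with 2 lower at 12 h, and import genes higher numbered 2, 3 and 0. The 2 lower calls depend on the scaling. With each array centred on its median in place of quantile normalization, the median of all genes at 12 h moved to 0.78 and the list had 10 higher and 0 lower. Over all tested genes 3084 were then higher and 288 lower. Without background correction the list had 5 higher and 0 lower, against 1434 and 753 of all. In the authors' processed values the list had 2 higher and 1 lower, against 321 and 851 of all. The lower one was Idh3g (-0.71, adjusted p = 0.0489), with Ogdh and Pdha1 no longer called.

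Over time in culture, the counts of called genes are given beside the shares over all tested genes, which also lean toward higher levels except in mutant between 12 and 24 h. Levels are normalized between arrays, so a rise or fall here is relative to the other probes on the array. The amount of a transcript per cell was not measured. The counts are no result about the list as a whole. In mutant blood 3 rose and 0 fell between 0 and 12 h, against 27.9% of all tested genes called, 23.2% higher and 4.62% lower. At unadjusted p below 0.05 there were 5, against 1996 of all 4846. Between 12 and 24 h 5 rose and 2 fell, against 27.2% called, 12.6% higher and 14.6% lower. From 0 to 24 h 6 rose and 1 fell, against 44.6% called, 29.5% higher and 15.1% lower. In wild-type blood 7 rose and 0 fell between 0 and 12 h, against 44.7% called, 35.9% higher and 8.75% lower. At unadjusted p below 0.05 there were 8, against 2528 of all. No gene of the list was called between 12 and 24 h, against 5.82% of all, 3.94% higher and 1.88% lower. At unadjusted p below 0.05 there were 3, against 802 of all. From 0 to 24 h 7 rose and 1 fell, against 49.2% called, 37.1% higher and 12.2% lower. The comparisons share arrays, so their counts are not independent of each other. Every 0 h array had a higher raw median than every later array. A change from 0 h and this difference between arrays cannot be told apart, in any setting run. With median centring the list had 2 genes higher and 6 lower in mutant between 12 and 24 h, against 365 and 1723 of all tested genes. The authors' processed values had 5 higher and 0 lower there, against 928 and 117 of all. From 0 to 24 h in mutant both these values and those without background correction had 6 higher and 0 lower. Over all tested genes these 2 settings had 1940 higher and 403 lower, and 1434 and 717. In wild type from 0 to 24 h median centring had 4 higher and 0 lower, against 824 and 225 of all.

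**Figure D3:**
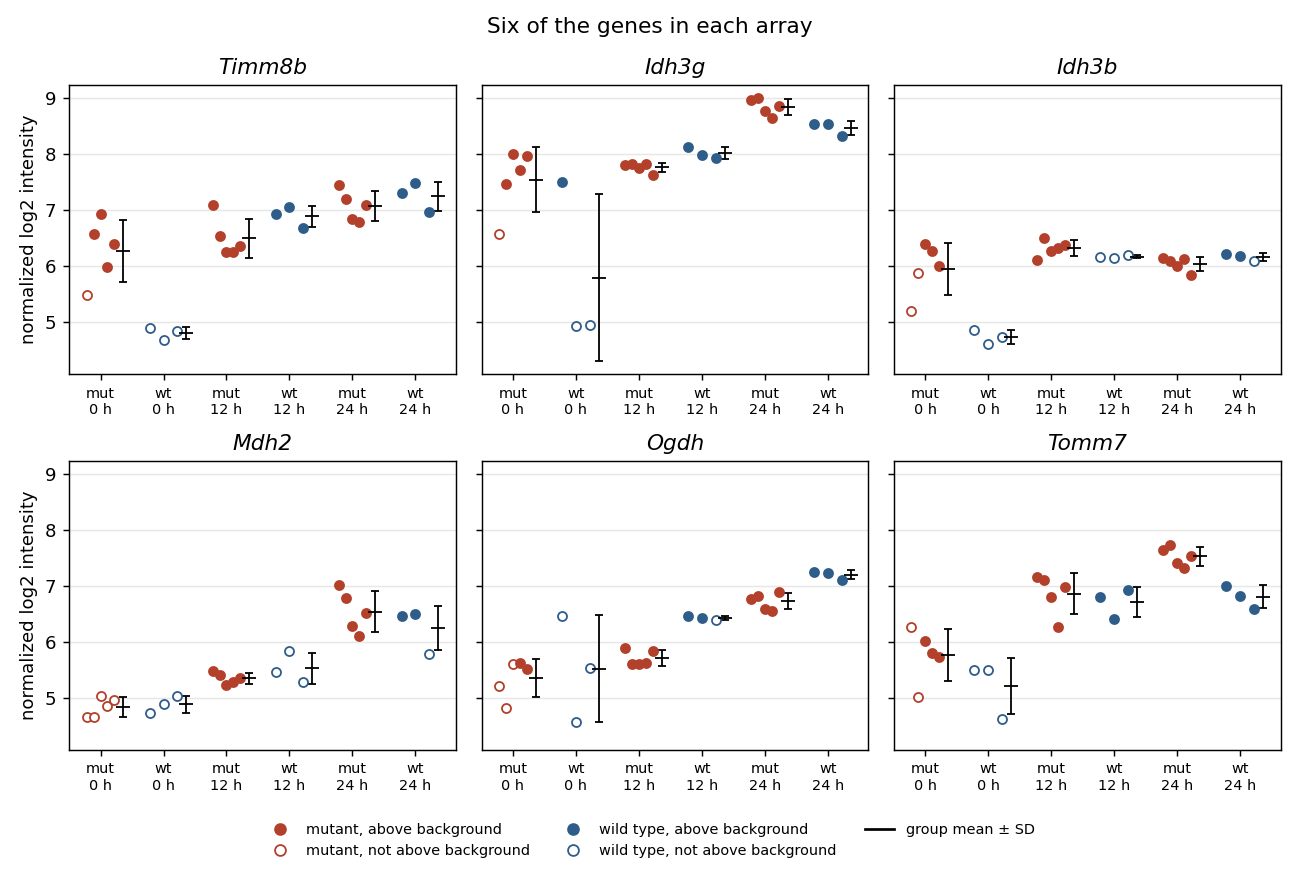
Normalized log2 intensity of Timm8b, Idh3g, Idh3b, Mdh2, Ogdh and Tomm7 on each array (vertical axis) by genotype and time (horizontal axis), with filled points above background, open points at background, and bars at the group mean ± SD. At 0 h the 3 wild-type points of Timm8b and Idh3b lie below every mutant point, 1 wild-type point of Idh3g stands at 7.51 among the mutant points, and Mdh2, Ogdh and Tomm7 are highest at 24 h in both genotypes or in mutant.

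Pyruvate dehydrogenase feeds the cycle, and its E1 component is made of the subunits encoded by Pdha1 and Pdhb. Pdhb had log2 levels of 5.98, 5.61, 5.30, 5.30 and 5.43 on mutant arrays 1 to 5 at 24 h, against 5.25, 4.69 and 4.69 on wild-type arrays 1 to 3, and array values are given in this order throughout. The groups did not overlap, 4 of 5 mutant arrays and no wild-type array were above background, and Pdhb was the gene called at 24 h (limma adjusted p = 0.0228). Since every mutant level was below that needed on a wild-type array, the arrays above background do not compare the genotypes. The call was lost without wild-type array 2 or 3 at 24 h, with an adjusted p of up to 0.126 when 1 array was left out, and with median centring or no filter. Within mutant blood Pdhb averaged 5.52 ± 0.28 at 24 h against 5.07 ± 0.15 at 12 h (SD, n = 5 each), a 1.37-fold rise with 4 and 2 arrays above background (adjusted p = 0.0459). That call was lost without any 1 of the mutant 12 h arrays or of the 24 h arrays 1, 2 and 5, up to 0.153, and with median centring the difference was -0.011.

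Pdha1 was called lower in mutant at 12 h. It had 5.24, 5.46, 5.59, 5.74 and 5.65 in mutant, where 4 of 5 arrays were above background, against 6.06, 6.06 and 6.11 in wild type, where none was. The wild-type arrays had the higher normalized level although the probe was at background on each of them (adjusted p = 0.0485). The call was lost without any 1 of the 8 arrays (adjusted p up to 0.121), without background correction, with no filter and in the authors' processed values, and with median centring the difference turned to 0.68. In wild type Pdha1 was called higher at 12 h, at 6.08 ± 0.03, than at 0 h, at 5.18 ± 0.26 (SD, n = 3 each, adjusted p = 0.00561), with all 6 arrays at background. That call was lost with median centring (log2 difference 0.25, against 0.90) and without wild-type arrays 2 and 3 at 0 h (0.64). At 0 h it had 4.82, 5.05, 5.75, 5.90 and 5.83 in mutant against 5.44, 4.91 and 5.19 in wild type, and the groups overlapped.

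Cs encodes citrate synthase, which joins the acetyl group to oxaloacetate in the first step of the cycle. At 12 h it had 4.84, 5.55, 5.61, 5.86 and 5.72 in mutant, against 5.03, 4.87 and 4.78 in wild type, all at background. Mutant array 1 lay inside the wild-type range, and the other 4 lay above it (adjusted p = 0.0245). Leaving out any 1 of wild-type arrays 2 and 3 or mutant arrays 4 and 5 ended the call, with an adjusted p of up to 0.0923, as did no filter and the authors' processed values. At 24 h Cs had 4.87, 5.10, 5.24, 5.36 and 4.88 in mutant against 4.72, 4.66 and 4.67 in wild type. These groups did not overlap, but the difference was not called (adjusted p = 0.203).

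The isocitrate dehydrogenase that uses NAD is built from a catalytic subunit, Idh3a, and the subunits Idh3b and Idh3g. Idh3g had the brightest of these probes, and at 0 h it read 6.58, 7.46, 8.01, 7.71 and 7.96 in mutant against 7.51, 4.93 and 4.95 in wild type. Wild-type array 1 was inside the mutant range and above background, and wild-type arrays 2 and 3 were far below it and at background. The mean was 7.54 ± 0.58 in mutant and 5.80 ± 1.48 in wild type, a 3.35-fold difference (log2 difference 1.75 ± 0.41 (SE), adjusted p = 0.00158). It rests on wild-type arrays 2 and 3, which have raw medians above 200: without them the log2 difference was 0.04, and without all 4 such arrays 0.38, neither called. A second Idh3g probe gave a difference of 0.27 at 0 h.

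At 12 h Idh3g had 7.80, 7.81, 7.74, 7.83 and 7.63 in mutant against 8.13, 7.98 and 7.92 in wild type. At 24 h it had 8.96, 8.996, 8.76, 8.64 and 8.85 in mutant against 8.54, 8.54 and 8.32 in wild type. All 16 later arrays were above background, so these levels are measured on both sides, and the groups did not overlap at either time. Mutant was the lower genotype at 12 h by 1.19-fold and the higher at 24 h by 1.30-fold, and neither was called (adjusted p = 0.633 and 0.529). The SE of 0.41 at both times includes the spread of the 0 h arrays. There the SD was 0.58 in mutant and 1.48 in wild type. In the same order the SDs were 0.08 and 0.10 at 12 h and 0.14 and 0.13 at 24 h. The 12 h difference was called with array weights (0.0444) and in the authors' processed values (0.0489), and the 24 h difference when only the 24 h arrays were fitted (0.0317). Within mutant blood Idh3g was 2.11-fold higher at 24 h than at 12 h (adjusted p = 0.026) and 2.46-fold higher at 24 h than at 0 h (0.00451). The rise from 12 h was lost without mutant array 3 or 5 at 12 h or 1 or 2 at 24 h (up to 0.0598), and with no filter. In wild type it was 4.64-fold higher at 12 h and 6.36-fold higher at 24 h than at 0 h, by log2 differences of 2.21 ± 0.45 and 2.67 ± 0.45, which became 0.50 and 0.96 without arrays 2 and 3 at 0 h.

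Idh3b showed the 0 h difference with every wild-type array on 1 side. It had 5.21, 5.88, 6.39, 6.27 and 6.01 in mutant, with arrays 3 to 5 above background, against 4.87, 4.62 and 4.74 in wild type, with none (adjusted p = 7.09e-05). Every mutant level was below the 6.64 to 7.80 that wild-type arrays needed at 0 h to stand above background. The number of arrays above background thus does not compare the genotypes at 0 h, and no fold or bound is given. The 0 h call held without any 1 of the 8 arrays and without the 4 arrays of high raw median, and it was lost when only the 8 arrays of 0 h were fitted. At 12 h Idh3b had 6.12, 6.51, 6.27, 6.32 and 6.38 in mutant, all above background, against 6.16, 6.15 and 6.20 in wild type, all at background. The 24 h levels were 6.14, 6.09, 6.01, 6.14 and 5.84 against 6.22, 6.19 and 6.09, with wild-type arrays 1 and 2 above background. The groups overlapped at both later times and were not called (adjusted p = 0.561 and 0.711). In wild type Idh3b was called higher at 12 h and at 24 h than at 0 h, at 6.17 ± 0.02 and 6.16 ± 0.07 against 4.74 ± 0.12 (SD, n = 3 each, adjusted p = 2.95e-05 and 2.29e-05), but only 2 of these 9 arrays were above background. With median centring both calls ended and the log2 differences were 0.62 and 0.66, against 1.43 and 1.42.

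Idh2 passed the filter by wild-type array 1 at 0 h and mutant arrays 3 and 4 at 12 h. Its 0 h levels were 4.63, 4.62, 4.72, 5.06 and 4.88 in mutant against 7.14, 4.65 and 4.57 in wild type. Wild-type array 1 stood alone, and the difference was not called (adjusted p = 0.0951). It was called lower in mutant without wild-type array 2, by -1.08, or without wild-type array 3, by -1.12, in which case array 1 makes up a larger share of its group.

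The 2-oxoglutarate dehydrogenase complex makes succinyl-CoA, with Ogdh as its E1 and Dlst as its E2 subunit. Dlst had 5.11, 5.07, 5.81, 5.62 and 5.92 at 0 h in mutant against 4.85, 4.86 and 4.99 in wild type (adjusted p = 0.0293). At 12 h it had 5.52, 6.07, 5.97, 5.95 and 6.03 in mutant against 5.15, 5.29 and 5.15 in wild type (adjusted p = 0.0122). By 24 h Dlst had 5.77, 5.79, 5.76, 5.96 and 5.93 in mutant against 5.71, 5.56 and 4.72 in wild type, which was not called (adjusted p = 0.105). The groups did not overlap at any of the 3 times, with all 10 later mutant arrays and none of the 9 wild-type arrays above background. At each time the mutant levels were also below those a wild-type array needed to stand above background, so this contrast is no result. The 0 h call ended when any 1 of wild-type arrays 1 and 2 or mutant arrays 3 to 5 was left out (up to 0.0779), and also with median centring, with only the 0 h arrays fitted, without wild-type arrays 2 and 3, with only the 4 arrays of high raw median, and in the authors' processed values. The 12 h call held without any 1 array and was lost in the authors' processed values.

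Ogdh ran the other way, with measured levels on most later arrays. At 12 h it had 5.90, 5.61, 5.62, 5.62 and 5.84 in mutant, all above background, against 6.47, 6.42 and 6.40 in wild type, with arrays 1 and 2 above background. The groups did not overlap, and mutant was lower by 1.64-fold (log2 difference -0.72 ± 0.28, adjusted p = 0.0362). At 24 h it had 6.76, 6.82, 6.60, 6.56 and 6.90 in mutant against 7.25, 7.23 and 7.11 in wild type, all above background and again not overlapping, 1.38-fold lower and not called (adjusted p = 0.234). The 12 h call was lost without any 1 wild-type array or without mutant array 2, 3 or 4 (up to 0.0869), without background correction, with no filter and in the authors' processed values. With median centring the difference at 12 h turned to 0.55, which is -0.22 relative to the median of all genes in that scaling, against -1.01 relative to it as normalized here.

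Within each genotype the normalized level of Ogdh was higher at 24 h than at 0 h. In mutant it was 2.58-fold higher at 24 h than at 0 h (6.73 ± 0.15 against 5.36 ± 0.34, SD, n = 5 each, adjusted p = 6.95e-05) and 2.02-fold higher at 24 h than at 12 h (adjusted p = 0.00308). The 24 and 12 h arrays of the mutant did not overlap, and both calls held without any 1 array, the second being lost with median centring. In wild type it was at least 1.04-fold higher at 24 h than at 0 h (7.20 ± 0.08 against 5.53 ± 0.95, SD, n = 3 each, adjusted p = 9.7e-05). Without wild-type arrays 2 and 3 at 0 h the log2 difference was 0.73, against 1.67, and was not called. The 0 h values were 6.47, 4.57 and 5.53, a spread wider than the rise to 12 h, and the call at 12 h against 0 h (adjusted p = 0.0201) was lost without wild-type array 2 at 0 h or 1 at 12 h, up to 0.217, with median centring and when only these arrays were fitted, and turned to -0.040 without arrays 2 and 3 at 0 h.

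Suclg1 encodes the alpha subunit of succinyl-CoA ligase, common to its ATP and GDP forms. At 0 h it had 5.19, 5.73, 6.73, 7.11 and 6.88 in mutant against 5.88, 4.70 and 4.88 in wild type. Mutant arrays 3 to 5 were above background and above every wild-type array, while mutant arrays 1 and 2 fell inside the wild-type range (adjusted p = 0.0093). The call was lost without wild-type array 2 (0.0589), without wild-type arrays 2 and 3 together, with only the 0 h arrays fitted, with only the 4 arrays of high raw median, and on the mean of both its probes, the second of which gave a difference of -0.30. At 12 h Suclg1 had 6.17, 6.52, 6.49, 6.50 and 6.65 in mutant, all above background, against 6.00, 5.72 and 5.23 in wild type, none above it. The mutant level was at least 1.07-fold higher, groups apart, at an adjusted p of 0.0529 that just missed the threshold and was 0.0454 with a replicate block.

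Fh1 is fumarase, which hydrates fumarate to malate, and Mdh2 is the mitochondrial malate dehydrogenase that closes the cycle. Fh1 had 5.13, 5.60, 5.65, 5.70 and 5.51 at 12 h in mutant, with arrays 2 to 5 above background, against 4.97, 4.97 and 4.64 in wild type, with none (adjusted p = 0.00345). The groups did not overlap, and the call held without any 1 array and under each of 8 other settings. Every mutant level was below the 6.18 to 6.55 that wild-type arrays needed at 12 h, so the arrays above background do not compare the genotypes. At 24 h it had 4.92, 5.11, 5.25, 5.23 and 4.82 in mutant against 4.68, 4.59 and 4.62 in wild type, apart but not called (adjusted p = 0.0706). Within mutant blood Fh1 was 1.37-fold lower at 24 h than at 12 h (adjusted p = 0.0214), and the groups overlapped through array 1 at 12 h. Only 1 of 5 arrays was above background at 24 h, against 4 of 5 at 12 h, so the fold is against a group mostly at background. That fall was lost without mutant array 3 or 4 at 12 h or 1 or 5 at 24 h (up to 0.0658), with no filter and in the authors' processed values.

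Mdh2 was called over time in both genotypes and not between genotypes. In mutant it had 4.66, 4.66, 5.05, 4.86 and 4.98 at 0 h, 5.49, 5.41, 5.23, 5.29 and 5.36 at 12 h, and 7.02, 6.79, 6.29, 6.11 and 6.52 at 24 h. In wild type it had 4.74, 4.90 and 5.04 at 0 h, 5.46, 5.84 and 5.29 at 12 h, and 6.46, 6.50 and 5.79 at 24 h. No mutant array was above background at 0 h and all 10 were afterwards, while in wild type arrays 1 and 2 at 24 h were, and the times did not overlap within either genotype except that wild-type array 3 at 24 h lay below array 2 at 12 h. In mutant the level at 24 h was at least 1.53-fold higher than at 0 h (adjusted p = 7.06e-08) and 2.28-fold higher than at 12 h (log2 difference 1.19 ± 0.18, adjusted p = 2.79e-05). Both held without any 1 array and under every other setting run for them. No setting could part the change from 0 h from the higher raw medians of the 0 h arrays. In wild type it was called higher at 24 h and at 12 h than at 0 h (adjusted p = 3.85e-05 and 0.0284), with no bound above 1, and with median centring neither was (log2 differences 0.66 and 0.16, against 1.35 and 0.63). The 12 h calls against 0 h were the weaker ones. In mutant (adjusted p = 0.0343) it was lost without array 1 or 2 at 0 h or array 1, 2, 4 or 5 at 12 h (up to 0.0768), with array weights, without the 4 arrays of high raw median and in the authors' processed values, and in wild type without array 1 or 2 at either time (up to 0.145). Between genotypes the adjusted p was 0.848, 0.497 and 0.32 at 0, 12 and 24 h, with overlapping groups and log2 differences of -0.06 ± 0.21, -0.17 ± 0.21 and 0.29 ± 0.21 (SE). Other settings called it higher in mutant at 24 h, by 1.03 with median centring (adjusted p = 0.00794) and by 0.39 in the authors' processed values (0.0321), or lower at 12 h, by -0.43 with array weights (0.000691). The wild-type rise from 12 to 24 h was called with a replicate block (adjusted p = 0.0389) and not without it (0.0691), and also with array weights (0.00242) and without wild-type array 3 at 24 h (0.0205).

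**Figure D4:**
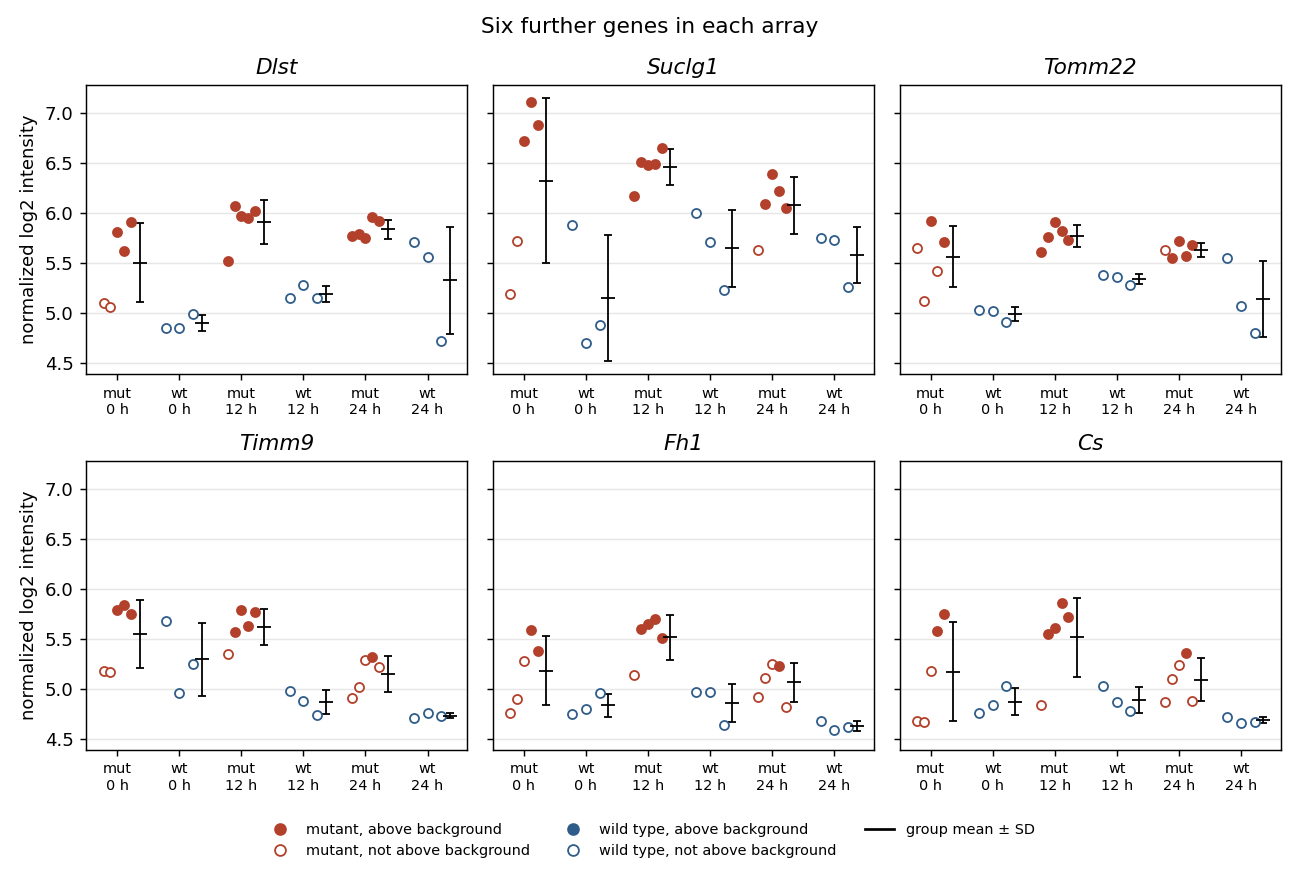
Normalized log2 intensity of Dlst, Suclg1, Tomm22, Timm9, Fh1 and Cs on each array (vertical axis) by genotype and time (horizontal axis), with filled points above background, open points at background, and bars at the group mean ± SD. Every wild-type point is open, and at 12 h the mutant points of Dlst, Suclg1, Tomm22, Timm9 and Fh1 lie above all wild-type points, while 1 mutant point of Cs, at 4.84, lies among them. Except for Suclg1, the mutant points are also below the level a wild-type array needed for a filled point.

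In the outer membrane, Tomm22 is a receptor of the TOM complex and Tomm7 a small subunit that modulates its assembly. Tomm22 had 5.65, 5.12, 5.92, 5.42 and 5.71 at 0 h in mutant against 5.03, 5.03 and 4.91 in wild type (adjusted p = 0.0115). At 12 h it had 5.61, 5.76, 5.91, 5.83 and 5.73 in mutant against 5.38, 5.36 and 5.28 in wild type (adjusted p = 0.0467). By 24 h Tomm22 had 5.63, 5.56, 5.72, 5.58 and 5.68 in mutant against 5.56, 5.07 and 4.80 in wild type (adjusted p = 0.0552, not called). Mutant and wild-type values did not overlap at any time, at 24 h by less than the rounding of the values given, and no wild-type array was above background. The 0 h call held without any 1 array. It was lost in 5 of 12 other settings, namely the authors' processed values, array weights, only the 0 h arrays fitted, without wild-type arrays 2 and 3, and with only the 4 arrays of high raw median (adjusted p 0.0598 to 0.283). The 12 h call was lost without any 1 of the arrays of 12 h other than mutant array 1 (up to 0.133), and without background correction, with no filter or in the authors' processed values.

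The normalized level of Tomm7 rose with time in culture. In mutant it had 6.26, 5.02, 6.02, 5.80 and 5.74 at 0 h, 7.15, 7.11, 6.80, 6.27 and 6.98 at 12 h, and 7.64, 7.72, 7.41, 7.32 and 7.54 at 24 h. In wild type it had 5.51, 5.50 and 4.63 at 0 h, 6.81, 6.41 and 6.93 at 12 h, and 6.999, 6.83 and 6.59 at 24 h. All 16 later arrays were above background, against 3 mutant arrays and no wild-type array at 0 h. In mutant the level was 3.38-fold higher at 24 h than at 0 h (log2 difference 1.76 ± 0.24, adjusted p = 3.01e-06) and 2.14-fold higher at 12 h than at 0 h (1.09 ± 0.24, 0.00221), and both held without any 1 array. The rise from 12 to 24 h in mutant, 1.58-fold (0.0424), was lost without array 3, 4 or 5 at 12 h or array 1, 2, 3 or 5 at 24 h (up to 0.142), and with median centring or no filter. In wild type Tomm7 was called higher at 12 and at 24 h than at 0 h (adjusted p = 0.000382 and 0.000164), and the first of these was lost with median centring. At 24 h the genotypes did not overlap, mutant being 1.65-fold higher, and the difference was not called (adjusted p = 0.0735). It was called with median centring, without background correction, with array weights, in the authors' processed values and when only the 24 h arrays were fitted (adjusted p 0.000754 to 0.032).

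Among the small chaperones of the intermembrane space, Timm8b is the partner of Timm13, and Timm9 that of Timm10. Timm8b had the 0 h difference that held most widely. It had 5.49, 6.58, 6.93, 6.00 and 6.40 at 0 h in mutant, with arrays 2 to 5 above background, against 4.91, 4.69 and 4.85 in wild type, with none (adjusted p = 0.000192). The lowest mutant array was above the highest wild-type array, and the call held without any 1 array and under each of the 12 other settings run for it. Wild-type arrays at 0 h needed levels of 6.64 to 7.80 to stand above background, and only mutant array 3 was above the lowest of these. The number of arrays above background thus does not compare the genotypes at 0 h, and no fold or bound is given. A second Timm8b probe gave a difference of 0.63, smaller than that of the probe used. At 12 h Timm8b had 7.09, 6.54, 6.25, 6.25 and 6.37 in mutant against 6.93, 7.06 and 6.69 in wild type, and at 24 h 7.45, 7.20, 6.85, 6.79 and 7.09 against 7.30, 7.48 and 6.97. All 16 later arrays were above background, the genotypes overlapped, and neither time was called (adjusted p = 0.229 and 0.685).

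Over time Timm8b in wild type was at least 1.08-fold higher at 24 h than at 0 h (7.25 ± 0.26 against 4.82 ± 0.11, SD, n = 3 each, adjusted p = 7.92e-07). It was also called higher at 12 h, at 6.89 ± 0.19 (adjusted p = 9.3e-06), and both calls held under every setting run for them. None of these settings could part the time from the higher raw medians at 0 h. In mutant it was 1.74-fold higher at 24 h than at 0 h (7.07 ± 0.27 against 6.28 ± 0.55, SD, n = 5 each, adjusted p = 0.00888), with overlapping groups, and that call was lost with median centring.

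Timm9 was called higher in mutant blood at 12 h, and lower at 24 h than at 0 h in both genotypes. At 12 h it had 5.35, 5.57, 5.79, 5.63 and 5.77 in mutant, with arrays 2 to 5 above background, against 4.98, 4.88 and 4.74 in wild type, with none (adjusted p = 0.00255). The groups did not overlap, and the call held without any 1 array and under each of 9 other settings. Every mutant level was below the 6.18 to 6.55 that wild-type arrays needed at 12 h, so the arrays above background do not compare the genotypes. At 24 h it had 4.91, 5.01, 5.29, 5.32 and 5.22 in mutant against 4.71, 4.76 and 4.73 in wild type, apart but not called (adjusted p = 0.113). Within mutant blood Timm9 was 1.39-fold lower at 24 h than at 12 h (adjusted p = 0.0284) and 1.32-fold lower than at 0 h (0.043). Only 1 of the 5 mutant arrays of 24 h was above background, against 4 at 12 h and 3 at 0 h, so these folds are against a group mostly at background. The first was lost without array 3, 4 or 5 at 12 h or 1 or 2 at 24 h (up to 0.0881), and the second without array 3, 4 or 5 at 0 h or 1, 2 or 5 at 24 h (up to 0.114). Both were lost with no filter and in the authors' processed values. In wild type its fall from 0 h, to 4.73 ± 0.03 at 24 h against 5.30 ± 0.36 (SD, n = 3 each, adjusted p = 0.0245), is between groups at background throughout and was lost without array 1 at 0 h or any 1 array at 24 h (up to 0.144), and with median centring, array weights or only these arrays fitted.

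At the inner membrane, Timm17a is a core subunit of the TIM23 channel and Timm44 anchors the import motor to it. Timm44 had 5.37, 5.39, 5.26, 5.39 and 5.17 at 12 h in mutant, with arrays 2 to 5 above background, against 4.83, 4.94 and 4.89 in wild type, with none (adjusted p = 0.0131). The groups did not overlap, and the call held without any 1 array and was lost in the authors' processed values. Every mutant level was below the 6.18 to 6.55 that wild-type arrays needed at 12 h, so the arrays above background do not compare the genotypes. Within mutant blood it was called higher at 12 h than at 0 h, at 5.32 ± 0.09 against 4.80 ± 0.22 (SD, n = 5 each, adjusted p = 0.00286), and higher at 24 h than at 0 h, at 5.22 ± 0.14 (0.00587), with the 5 arrays of 0 h at background. In wild type it was called higher at 24 h than at 0 h, at 5.24 ± 0.33 against 4.65 ± 0.11 (SD, n = 3 each, adjusted p = 0.00202), with all 6 arrays at background. Both 24 h calls were lost with median centring.

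Timm17a was called in no comparison as normalized and fitted here. Other settings did call it: lower in mutant at 12 and 24 h with array weights (adjusted p = 0.000523 and 0.00136) and at 24 h when only the 24 h arrays were fitted (0.0419). From 0 to 24 h in wild type (0.0591) it was called higher with a replicate block (0.0423), without background correction (0.0474), in the authors' processed values (0.0161), and without wild-type array 3 at 0 h or at 24 h (0.0423 and 0.0188). At 12 h it had 5.38, 5.74, 5.67, 5.71 and 5.66 in mutant against 6.26, 6.40 and 5.02 in wild type, and at 24 h 6.05, 5.88, 5.88, 5.83 and 5.60 against 6.72, 6.87 and 5.76. Wild-type arrays 1 and 2 were above background and above every mutant array at both times, and wild-type array 3 was at background at both. The log2 differences were -0.26 ± 0.35 at 12 h and -0.60 ± 0.35 at 24 h (adjusted p = 0.552 and 0.229).

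The change from 0 to 12 h differed between genotypes for 3 of the 17 tested genes, each with a smaller rise in mutant, against 15.6% of all tested genes, 3.36% with a higher and 12.2% with a lower change in mutant. These were Timm8b, by -1.86 ± 0.39 log2 units (limma adjusted p = 0.00191), Idh3g, by -1.99 ± 0.58 (0.02), and Idh3b, by -1.06 ± 0.29 (0.016). For Timm8b and Idh3b all 3 wild-type arrays of 0 h are at background, so these sizes are no measured folds. The Idh3g value was lost without wild-type array 2 or 3 at 0 h (up to 0.0803) and became -0.28 without both. With median centring none of the 3 was called (-0.81 for Timm8b, -1.59 for Idh3g and -0.07 for Idh3b), and without wild-type arrays 2 and 3 at 0 h Idh3b was not called either. For the change from 12 to 24 h no gene of the list was called (limma), against 1.3% of all tested genes, 0.908% higher and 0.392% lower. At unadjusted p below 0.05 there was 1, against 614 of all 4846. In the authors' processed values 1 was called, Tomm7, with a larger rise in mutant.

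Other genes of the same pathways were taken from lists of 16 further cycle genes and 30 further import genes, of which 4 and 15 were tested. Of the 4 cycle genes 1 was higher and 1 lower in mutant at 0 h, 1 was higher at 12 h and 1 at 24 h. The higher one each time was Sdhc, a membrane subunit of succinate dehydrogenase, at 5.38 ± 0.42, 5.90 ± 0.25 and 5.66 ± 0.18 in mutant (SD, n = 5 each) against 4.68 ± 0.08, 5.06 ± 0.20 and 4.80 ± 0.24 in wild type (SD, n = 3 each) at 0, 12 and 24 h. Its groups did not overlap at any time (adjusted p = 0.00733, 0.00256 and 0.00463). No wild-type array was above background, but the mutant means were also below the levels that wild-type arrays needed for that. Pdk1, a kinase that inhibits pyruvate dehydrogenase, was lower in mutant at 0 h by 1.85-fold (5.18 ± 0.33 against 6.07 ± 1.03, adjusted p = 0.0192), with overlapping groups and 1 array of each genotype above background.

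Of the 15 further import genes, 4 were higher and 1 lower in mutant at 0 h, 7 higher and 1 lower at 12 h, and 2 higher and 2 lower at 24 h. Over all tested genes 34.1% were higher and 8.4% lower at 0 h, 34.3% and 15.9% at 12 h, and 8.61% and 8.17% at 24 h, and with so few genes these counts are no result about import. Mtx1, a metaxin of the outer membrane, was called higher at each time, at 5.32 ± 0.62, 5.60 ± 0.10 and 5.59 ± 0.24 in mutant against 4.68 ± 0.01, 5.00 ± 0.18 and 4.78 ± 0.12 in wild type, where it was at background (adjusted p = 0.0277, 0.0339 and 0.0186). Dnajc19, a subunit of the import motor, was lower in mutant at 24 h by 2.02-fold, at 5.84 ± 0.27 against 6.86 ± 0.39, with 4 of 5 mutant and 3 of 3 wild-type arrays above background and no overlap (adjusted p = 0.0318). Romo1, listed with the import genes as a regulator of inner-membrane import, was at background on all 5 mutant arrays at 24 h and above it on 2 of 3 wild-type arrays. It was at least 2.06-fold lower in mutant, at 5.16 ± 0.13 against 6.45 ± 0.49 (adjusted p = 0.00038).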

How the data were processed

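Total RNA of 24 mouse samples was measured on Illumina bead arrays, and samples were grouped by genotype and time from the labels. For every array the deposited table lists raw bead intensity and a detection p-value for each probe, per the file headers. The authors' processed intensity values follow a straight line against raw intensity within each array (largest residual 0.0145), and how they were made is not stated in the labels or headers. Arrays give no read depth, and their number limits the precision.

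The raw intensities were background-corrected and quantile-normalized with the neqc function of limma 3.58.1 (R 4.3.3, offset 16). A probe was kept with a detection p below 0.01 on at least 3 of 24 arrays, which left 6312 of 25697 probes and, at 1 probe (the brightest on average) per gene, 4846 genes. The array annotation names a gene for 23978 probes and none for 1719, and 23962 of those names matched the reference table. Means of the 6 groups were fitted together by limma with an intensity trend. p-values were adjusted by Benjamini-Hochberg over all tested genes, with a threshold of 0.05. Calls were tested on simulated data. These gave each gene the same spread on every array and did not copy the higher raw medians at 0 h. They are therefore no check of the 0 h calls. Figures were drawn with matplotlib 3.10.9. The members and gene lists were chosen with earlier results of these data known, and every member is accounted for. Members called in a comparison are described in full, and other pathway genes are named only where called between genotypes.

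The alternatives were median centring, no background correction, the authors' processed values, no filter, a stricter filter of 8 arrays, array weights, a replicate block, fits of only the groups compared, the mean of a gene's kept probes, leaving out each array in turn, and leaving out wild-type arrays 2 and 3 at 0 h. Leaving out, or keeping only, the 4 arrays at 0 h with a raw median above 200 was chosen after seeing the data. Replicate numbers come from the labels. Residuals of equal-numbered arrays correlated above 0.1 in every pair between mutant 0 and 12 h (0.113 to 0.401), mutant 12 and 24 h (0.176 to 0.668) and wild type 12 and 24 h (0.308 to 0.515), and not in the other pairs of groups.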

Additional observations from a re-analysis of the deposited data

Results flagged for a closer look

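On mutant array 1 at 12 h, 3 genes lay apart from the other 4 arrays of the group by Dixon's criterion. Idh2 was at 4.74 there and at 5.02 to 5.08 on the others, Dlst at 5.52 and at 5.95 to 6.07, and Timm17a at 5.38 and at 5.66 to 5.74. These were 3 of 51 combinations of a gene and a mutant group, and chance flags about 1 in 20 groups. That array also had the smallest share of probes above background among the mutant arrays of 12 h, 13.0%. The change from 0 to 12 h differed between genotypes, mutant minus wild type, for Idh3b by -1.06 log2 units, for Idh3g by -1.99 and for Timm8b by -1.86 (limma adjusted p = 0.016, 0.02 and 0.00191).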

How the results depend on the processing

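Counts below are of the 17 genes called by limma, with the calls over all tested genes in brackets, and moved as follows. Fitting only the groups compared gave 1 at 0 h (593), 10 at 24 h (2169) and 1 for wild type 12 to 24 h (716). It gave 1 for the genotype difference in the change from 0 to 12 h (437). No background correction gave 5 at 12 h (2187) and 3 at 24 h (809). The authors' processed values gave 3 at 12 h (1172), 8 at 24 h (1557) and 1 for wild type 12 to 24 h (343). They gave 1 for the genotype difference in the change from 12 to 24 h (329). With no filter all 30 genes were tested, and the brackets are over 16593 gene names. No filter gave 5 of 30 at 12 h (2735), and 6 (2896) and 2 (907) for mutant 0 to 12 h and 12 to 24 h. It gave 12 (5911) and 16 (7148) for wild type 0 to 12 h and 0 to 24 h, and 5 (1229) for the difference in the change from 0 to 12 h. Array weights gave 16 at 12 h (4009), 10 at 24 h (2646), 11 for mutant 12 to 24 h (3273) and 6 for wild type 12 to 24 h (1500). They gave 5 (1464) and 4 (1725) for the differences in the change. Median centring gave 2 at 24 h (511), and 2 (997) and 4 (1049) for wild type 0 to 12 h and 0 to 24 h. It gave 0 (98) for the difference in the change from 0 to 12 h. The mean of all kept probes gave 2 at 24 h (880). Without the 4 arrays of high raw median at 0 h the count was 11 for mutant 0 to 24 h (3005). With only those 4 at 0 h the count between genotypes at 0 h was 3 (1140). The cause was not tested.

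Leaving out 1 array in turn gave 5 to 8 calls at 0 h, 4 to 8 at 12 h and 0 to 2 at 24 h between genotypes. It gave 2 to 6, 2 to 8 and 6 to 8 for mutant 0 to 12, 12 to 24 and 0 to 24 h, and 5 to 8, 0 to 1 and 7 to 10 for the same times in wild type. For the difference in the change it gave 2 to 5 from 0 to 12 h and 0 from 12 to 24 h. The ranges over all tested genes are not given beside these, so they are no result about the list. With a replicate block the counts were 6, 9 and 1 between genotypes, 4, 7 and 8 in mutant, 7, 1 and 9 in wild type, and 4 and 0 for the difference. Over all tested genes they were 2086, 2459 and 831, then 1660, 1642 and 2374, then 2399, 402 and 2593, and 971 and 108. The replicate block kept all 50 calls and added Suclg1 at 12 h (0.0454), Fh1 in mutant 0 to 12 h (0.0446), Pdhb in mutant 0 to 24 h (0.0404), Mdh2 in wild type 12 to 24 h (0.0389), Timm17a in wild type 0 to 24 h (0.0423) and Pdha1 in the difference from 0 to 12 h (0.0354). Median centring reversed Ogdh (0.55) and Pdha1 (0.68) at 12 h and Pdhb in mutant 12 to 24 h (-0.011), and kept 29 of 50 calls. Ogdh in wild type 0 to 12 h reversed to -0.040 without wild-type arrays 2 and 3 at 0 h, and also without the 4 arrays. At 12 h the share of all called genes that were higher in mutant was 68.3%, and 91.5% with median centring or 27.4% in the authors' processed values. At 24 h these shares were 51.3%, 84.9% and 78.5%, and at 0 h 80.2%, 97.6% and 91.1%.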

Other observations

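Without the 4 arrays of high raw median at 0 h, an alternative chosen after seeing the data, Idh2 was called lower in mutant at 0 h by -2.26 log2 units. The wild-type group then holds array 1 alone, at 7.14, so the lone array is assumed to vary like the other groups.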
